A study of Mus musculus with 40 samples.

Results

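The repressors of the mammalian circadian clock were described in the hearts of 40 male C57BL/6 mice (the dams were C57BL/6J), each measured on 1 Illumina MouseRef-8 beadchip. They are the Period genes Per1, Per2 and Per3, the cryptochromes Cry1 and Cry2, and Ciart, also known as Chrono. All probes annotated to these genes were taken, which gave 10 probes for 6 genes out of 25697 probes and 16593 named genes on the array. The members and the gene lists used below were chosen with earlier results of these data known. Shares and medians over all probes are thus given as a description, and do not test whether the set is unusual. The mice formed 4 groups of 10. They differed in the diet of the dam, high fat (HF) or low fat and high carbohydrate (LF), and in the diet eaten after weaning, again HF or LF. A group name gives the dam's diet first and the son's own diet second. The groups were HF_HF, HF_LF, LF_HF and LF_LF. No group carried a modified allele or received a drug, and every animal was killed at 9 weeks of age after a short fast. Breeding cages held 1 male with 2 females, so a cage number can cover 2 litters. There were 6 cages of HF-fed dams and 6 of LF-fed dams, and 5 cages gave sons to both diets.

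In the clock of mammalian cells, the activators ARNTL (BMAL1) and CLOCK bind E-boxes and switch on the Period and Cryptochrome genes, whose proteins return to the nucleus and shut that activity down. CIART joins this negative limb as a further repressor of the activator pair. The loop runs in the heart as in other organs, and the abundance of these transcripts changes over the day. The hour at which each animal was killed was not given in the sources used here.

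Of the 10 probes, 8 exceeded the median intensity of the array on at least 20 of 40 arrays and were tested, and each of the 8 did so on all 40 arrays. They stand for Per1 (probes A and B), Per2 (probes A and B), Per3, Cry2 and Ciart (probes A and B). The remaining probes, Cry1 and Per2 probe C, lay above the array median on 0 and 1 of the 40 arrays and entered no test. The arrays had been normalised to the same distribution, with medians between 79.2 and 79.5 intensity units. The hearts carried muscle signal, as the 5 tested cardiomyocyte markers on the array summed to between 72380 and 86620 intensity units in every heart. Signal of another tissue (pancreas, liver or skeletal muscle markers over 1.5 log2 units above the median heart) was present in 10 hearts, 2 in HF_HF, 3 in HF_LF, 3 in LF_HF and 2 in LF_LF. The arrays also fell into 2 sets of 25 and 15 by the first component of the dim probes. No label names these sets, which are called batches 1 and 2 below, and each held hearts of all groups. Cage 8, which held 3 LF_LF hearts, and cage 11, with 3 LF_HF and 2 LF_LF hearts, were each left out in turn where a result turned on them.

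Of the 5 tested repressors, Ciart had the largest change with the diet after weaning, and it was lower in HF-fed offspring whichever diet the dam had eaten. Ciart probe B read 149.5, 167.6 and 198.2 intensity units (lowest, median and highest heart) in HF_HF and 212.8, 287.6 and 384.5 in HF_LF. The lowest HF_LF heart was above the highest HF_HF heart, so these groups did not overlap. Among offspring of LF-fed dams, the same probe read 98.3, 147.4 and 202.1 in LF_HF and 167.7, 230.6 and 375.7 in LF_LF, where the groups overlapped. Ciart probe A read 165.8, 184.9 and 258.1 in HF_HF, against 223.4, 303.4 and 389.6 in HF_LF. It read 83.6, 164.4 and 215.7 in LF_HF, against 176.4, 235.2 and 446.1 in LF_LF. In whole-heart RNA, fewer cells expressing a gene and less RNA per cell cannot be told apart. Both probes moved together from heart to heart (r = 0.93 after removal of group means).

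**Figure D1:**
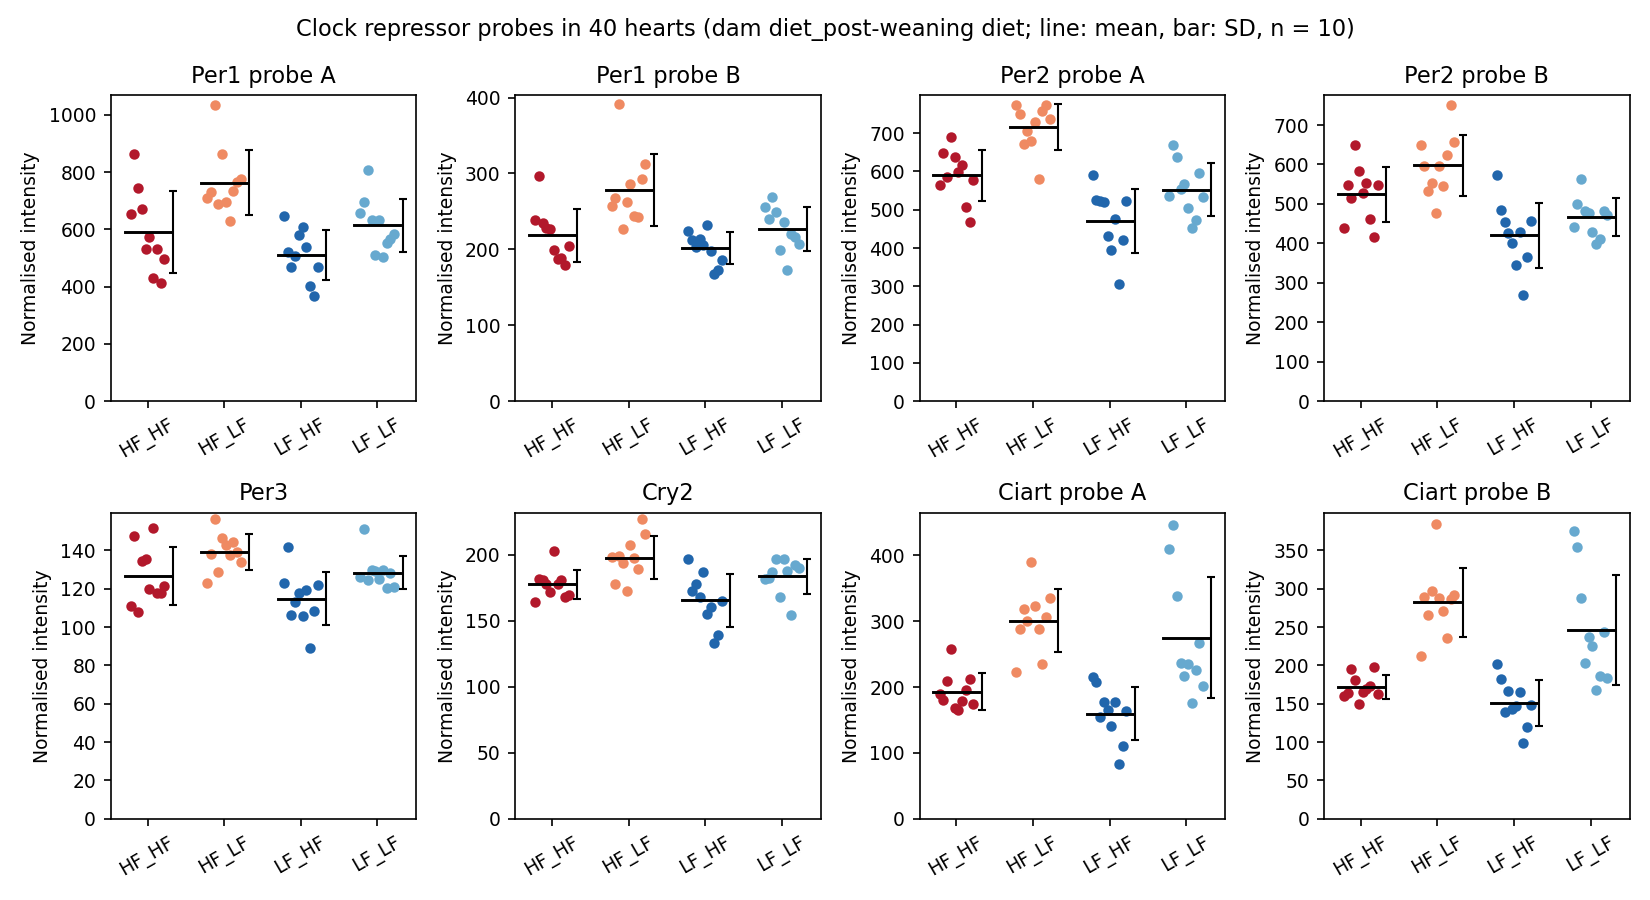
Normalised intensity (linear scale, from 0) of the 8 tested probes in each of 40 hearts, by group. Points are hearts, lines are group means and bars are the SD of 10 hearts. Ciart probe B of HF_HF lies below 198.2 and that of HF_LF above 212.8.

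In offspring of HF-fed dams, Ciart probe B fell by 0.70 on the log2 scale with the HF diet (SE 0.0782, limma adjusted p = 4.2155e-05), which left 0.614 of the LF-fed level. Probe A fell by 0.63 (SE 0.0908, adjusted p = 0.00085944), and all 10 HF_HF hearts lay under the HF_LF median for either probe. Probe B had the second smallest p of the 12645 tested probes. Probes whose groups did not overlap made up 0.0949% of those tested in this comparison. In offspring of LF-fed dams, Ciart probe B fell by 0.68 (SE 0.144, adjusted p = 0.015523) and probe A by 0.77 (SE 0.176, adjusted p = 0.02393), again with all 10 LF_HF hearts under the LF_LF median. The calls in offspring of LF-fed dams rested on few cages. Without cage 8 the changes were -0.46 and -0.51 for probes B and A (adjusted p = 0.05611 and 0.08531), without cage 11 they were -0.59 and -0.63 (0.1267 and 0.1457), and without the hearts carrying another tissue -0.57 and -0.66 (0.1894 and 0.227). Adipocyte markers, of which 2 were tested, had a median change of -1.09 in LF_HF against LF_LF and -0.33 in HF_HF against HF_LF, none of them called, and their part in the change of Ciart was not tested. Within batches 1 and 2, probe B changed by -0.74 and -0.65 in offspring of HF-fed dams (limma adjusted p = 0.0001331 and 0.9999). In those of LF-fed dams it changed by -0.66 and -0.60 (adjusted p = 0.1089 and 0.598). On cage means with HF-fed dams, probe B kept its call (-0.68, adjusted p = 0.01412) and probe A did not (-0.59, adjusted p = 0.07715). With LF-fed dams neither probe B nor probe A did (-0.60 and -0.67, adjusted p = 0.2216 and 0.2337).

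The proximal promoter of Ciart is shown because the activators of the clock act through E-boxes. The 250 bases before its start (RefSeq, GRCm38.p6, chr3:95882229-95882478, minus strand) read as follows, with the E-box letters CACGTG in capitals.
Ciart: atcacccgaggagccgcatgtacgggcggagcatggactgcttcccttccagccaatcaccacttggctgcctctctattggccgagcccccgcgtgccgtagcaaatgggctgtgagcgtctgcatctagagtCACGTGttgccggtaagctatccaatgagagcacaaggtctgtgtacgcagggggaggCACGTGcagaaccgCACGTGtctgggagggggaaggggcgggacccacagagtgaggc
The motif, which reads the same on both strands, occurred 3 times in this window, from 116, 58 and 44 bases before the start. Of 32851 mouse promoter windows of this length, 6.02% held it at least once and 0.0609% (20 windows) at least 3 times. These are matches of letters, and no factor binding was measured.

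Ciart also varied between cages of the same group, more than most probes. Hearts of the same cage and group formed 17 sets, some of 1 heart. Differences between these sets made up 72.5% and 71.8% of the variance within groups for probes A and B. The median over all tested probes was 38.9%. Both probes passed a moderated F-test of cage within group (F = 5.99 and 6.19, adjusted p = 0.038012 for either), in which 0.19% of all tested probes were called. That test fitted 10 cage terms, each shared by both diets of the sons, and so differs from the share of variance. Of the other members, Per1 probe A came nearest (adjusted p = 0.16836). The 3 LF_LF hearts of cage 8 read 288.1 to 375.7 for Ciart probe B, above the other 7 LF_LF hearts, which read 167.7 to 244.2. In the 3 LF_HF hearts of cage 11 it read 98.3 to 147.9, which overlapped the 139.7 to 202.1 of the other 7 LF_HF hearts. Of the tested probes, Per1 probe B was the 1 for which these 3 hearts lay wholly below the others (167.9 to 185.8, against 197.4 to 232.7). Neither Ciart probe kept its cage call without cage 8, and 1 of them did without cage 11.

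The 5 cages that gave sons to both diets allow the diets to be compared among animals born in the same cage. Ciart probe B was lower in the HF-fed than in the LF-fed sons of all 5 cages. The log2 differences were -0.63, -0.55 and -0.79 in cages 10, 20 and 23 of HF-fed dams, and -0.53 and -0.81 in cages 4 and 11 of LF-fed dams. Cage 10 had only 1 HF-fed heart, and cage 20 only 1 LF-fed heart. Probe A was lower in all 5 as well, by 0.42 to 1.01. With 5 cages, an exact sign-flip test cannot give a two-sided p under 0.0625, and both probes gave that value. Per3, Cry2, Per1 probe B and Per2 probe A were also lower in 5 of 5 cages, with mean log2 differences of -0.19, -0.17, -0.17 and -0.26 (exact p = 0.0625 for each). Per1 probe A and Per2 probe B were lower in 4 of 5 (-0.27 and -0.22, exact p = 0.125 and 0.1875).

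**Figure D2:**
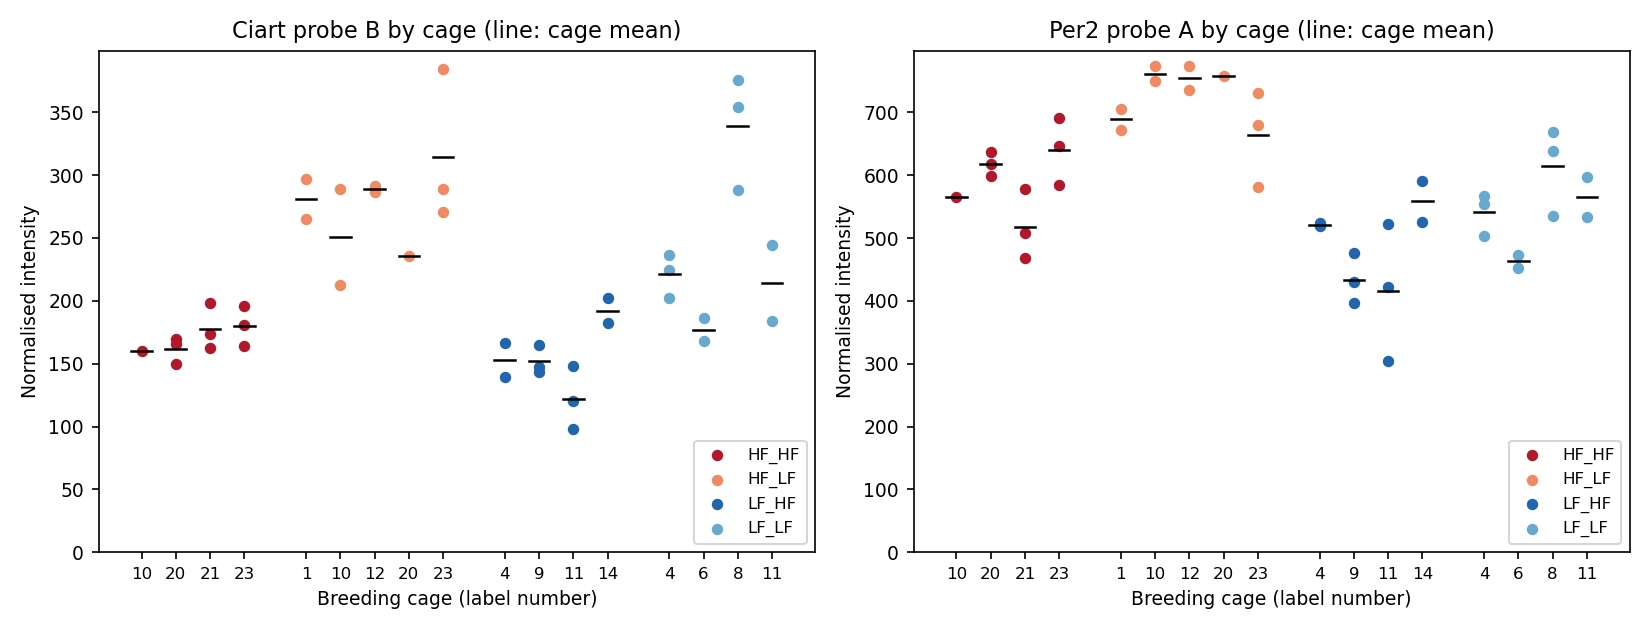
Normalised intensity (linear scale, from 0) of Ciart probe B and Per2 probe A by breeding cage, in the order of the groups. Points are hearts and lines are cage means. For Ciart, the 3 hearts of cage 8 stand at 288.1 to 375.7 above the other LF_LF hearts.

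Per2, the Period protein that binds cryptochromes and carries them to the activators, was the member that differed with the diet of the dam. Per2 probe A read 581.6, 733.2 and 774.6 intensity units in HF_LF, against 452.1, 545.3 and 669.2 in LF_LF. All 10 HF_LF hearts lay above the LF_LF median, although the groups overlapped. The probe rose by 0.38 on the log2 scale (SE 0.0691, 1.3-fold, limma adjusted p = 0.043464), and probe B, which read 476.8, 595.6 and 751.2 against 399.3, 474.9 and 564.2, had a change of 0.36 that did not pass (SE 0.0737, adjusted p = 0.14571). Probe A was thereby the 1 member probe called of 8 for the diet of the dam in LF-fed offspring, where 0.0395% of all tested probes were called (0.0316% as higher). The call was lost on leaving out any of 16 of the 20 hearts in turn, while the change stayed between 0.35 and 0.41. It was also lost without cage 11 (0.39, adjusted p = 0.1074), without the hearts carrying another tissue (0.40, adjusted p = 0.4418) and on cage means (0.42, adjusted p = 0.9909).

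Among HF-fed offspring, Per2 probe A read 468.7, 591.7 and 690.3 in HF_HF and 305.1, 497.6 and 590.7 in LF_HF. Its change of 0.34 (95% interval 0.14 to 0.53) and that of probe B, 0.33 (0.12 to 0.55), were near those in LF-fed offspring, but neither passed (adjusted p = 0.21318 and 0.27084). In this comparison limma called 0 of the 12645 probes, with 11.3% under an unadjusted p of 0.05. When the effect of the dam's diet was averaged over both post-weaning diets on all 40 arrays, both Per2 probes rose, probe A by 0.36 (SE 0.06, adjusted p = 0.001727) and probe B by 0.34 (SE 0.0655, adjusted p = 0.0050473). These were the 2 member probes called of 8, where 0.388% of tested probes were called (0.277% as higher). The diet of the dam was given per breeding cage. On the means of the 17 sets of cage and group neither call remained (0.35 and 0.32, adjusted p = 0.199 and 0.3145). In that fit the 5 divided cages entered under both diets of the sons. Both calls were also lost without the hearts carrying another tissue (0.36 and 0.34, adjusted p = 0.09198 and 0.1264) and within batch 2 (0.24 and 0.14), and both were kept within batch 1 (0.45 and 0.46). Between HF_LF and LF_LF, probe A changed by 0.51 and 0.24 within batches 1 and 2.

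Atrial markers had higher medians with HF-fed dams, although none of the 5 tested passed in either comparison. The 6 markers on the array summed to between 4074 and 88690 intensity units in HF_LF (median 68500), against 3454 to 89110 in LF_LF (median 7126). In HF_HF they summed to between 2936 and 82840 (median 43380), against 4388 to 47740 in LF_HF (median 19110). Per2 was nearly unrelated to the mean of these markers across hearts of a group (r = -0.065), and with that mean as a covariate the change of Per2 probe A between HF_LF and LF_LF was 0.43 (adjusted p = 0.006114). Whether atrial tissue had a part in the difference of Per2 with the dam's diet was not tested.

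Per2 probe A was also lower with the HF diet after weaning in offspring of HF-fed dams. It fell by 0.28 in HF_HF relative to HF_LF (SE 0.0655, adjusted p = 0.035701), with all 10 HF_HF hearts under the HF_LF median. With the 2 Ciart probes it made 3 member probes called of 8 in offspring of HF-fed dams, where 0.862% of tested probes were called (0.38% as lower). The call of Per2 was lost without any of 13 of the 20 hearts in turn, at changes of -0.32 to -0.25. It was also lost without the hearts carrying another tissue (-0.26, adjusted p = 0.1462) and on cage means (-0.31, adjusted p = 0.1984). With no filter on dim probes and with all 40 arrays in 1 fit the adjusted p was 0.069 and 0.1018. Per2 probe B had a change of -0.19 that did not pass (SE 0.0812, adjusted p = 0.49361). In offspring of LF-fed dams the changes of Per2 probes A and B were -0.24 (95% interval -0.45 to -0.04, adjusted p = 0.15647) and -0.17 (adjusted p = 0.32281). There the 2 Ciart probes were the members called, in a comparison with 2.72% of probes called (1.43% as lower). Of the 4 groups, HF_LF thus had the highest median for Per2 probe A, and LF_HF the lowest.

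Per1, an early-response Period gene that is induced by light, hormones and other stimuli, was likewise highest in HF_LF and lowest in LF_HF by median, without a call in any comparison of 2 groups. Per1 probe A read 413.4, 553.3 and 863.1 in HF_HF, against 630.9, 733.0 and 1035 in HF_LF, a change of -0.39 (SE 0.115, adjusted p = 0.14759). It read 369.2, 514.0 and 647.3 in LF_HF, against 504.4, 608.2 and 808.5 in LF_LF, a change of -0.27 (SE 0.0979, adjusted p = 0.1199). Between HF_LF and LF_LF the change was 0.31 (adjusted p = 0.57146), where all 10 HF_LF hearts lay above the LF_LF median, and between HF_HF and LF_HF it was 0.19 (adjusted p = 0.57374). Probe B moved with probe A from heart to heart (r = 0.84). Per1 has 2 listed starts, and its upstream window (GRCm38.p6, chr11:69098699-69098948, plus strand) is shown because it holds an E-box beside a D-box variant, TTATGCAA, the kind of element read by DBP and TEF, with both in capitals.
Per1: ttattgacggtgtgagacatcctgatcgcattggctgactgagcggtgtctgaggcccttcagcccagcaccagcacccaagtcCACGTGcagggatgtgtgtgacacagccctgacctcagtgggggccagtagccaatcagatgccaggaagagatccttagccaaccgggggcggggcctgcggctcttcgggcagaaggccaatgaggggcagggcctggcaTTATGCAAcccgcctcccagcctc
The E-box starts 166 and the D-box variant 24 bases before the start. The variant was present on either strand in 0.694% of all windows.

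Per3, the Period gene without which the mouse clock can still run, had smaller changes. It read 107.9, 120.7 and 151.8 in HF_HF, against 123.1, 138.7 and 156.2 in HF_LF (log2 change -0.14, SE 0.0607, adjusted p = 0.49326). In LF_HF it read 89.1, 115.6 and 141.6, against 120.2, 127.2 and 151.3 in LF_LF (-0.17, SE 0.0617, adjusted p = 0.12018). For the diet of the dam its changes were 0.11 between HF_LF and LF_LF and 0.14 between HF_HF and LF_HF (adjusted p = 0.99594 and 0.47201). Its promoter window (GRCm38.p6, chr4:151044666-151044915, minus strand) is shown because it holds 2 copies of the D-box TTATGTAA, in capitals.
Per3: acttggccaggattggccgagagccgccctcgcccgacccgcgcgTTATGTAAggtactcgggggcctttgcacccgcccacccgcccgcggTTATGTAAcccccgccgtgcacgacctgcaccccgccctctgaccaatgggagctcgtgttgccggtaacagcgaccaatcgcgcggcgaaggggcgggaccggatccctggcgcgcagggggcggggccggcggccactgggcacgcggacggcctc
The copies start 205 and 158 bases before the start. A D-box on either strand was found in 0.819% of the 32851 windows, and 2 or more in 0.0183% (6 windows).

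Cry2, a cryptochrome that holds the activators in a repressed complex, read 164.5, 178.0 and 203.0 in HF_HF, against 172.1, 197.9 and 226.9 in HF_LF (log2 change -0.15, SE 0.0497, adjusted p = 0.22882). In LF_HF it read 133.3, 166.3 and 196.7, against 154.5, 187.2 and 196.8 in LF_LF (-0.16, SE 0.0642, adjusted p = 0.16178). With the diet of the dam it changed by 0.11 whether the sons ate LF or HF (adjusted p = 0.99594 and 0.51147). For Cry1, the other cryptochrome, the probe read 52.3 to 66.5 over the 40 hearts, below the array median in each. Per2 probe C read 58.3 to 90.2 and was unrelated to Per2 probes A and B across hearts (r = 0.099 and -0.063). The promoter window of Cry1 (GRCm38.p6, chr10:85185055-85185304, minus strand) held 1 E-box, and those of Cry2 and of the second Per1 start held none of the searched letters. The search covered CACGTG, TTATGTAA, TTATGCAA and the cAMP response element TGACGTCA (in 1.55% of all windows) on both strands. A window was listed for 5 of the 6 genes.

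**Figure D3:**
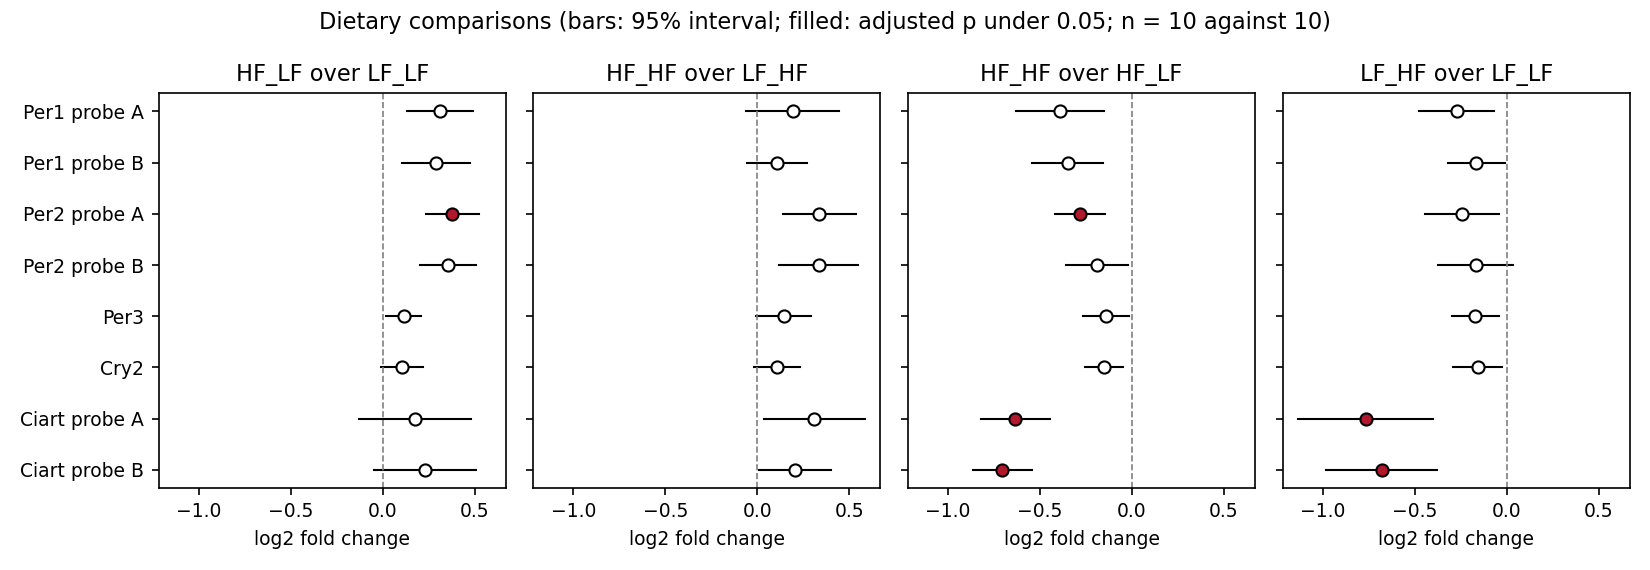
Log2 fold changes of the 8 tested probes in the 4 comparisons of 2 groups, with 95% intervals (10 hearts against 10). Filled points passed an adjusted p of 0.05. All changes for the diet of the dam lie above 0 and all changes for the diet after weaning lie below 0.

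Averaged over the diets of the dam, 7 of the 8 probes, covering all 5 tested genes, fell with the HF diet after weaning. Across all tested probes 7.49% were called in this comparison (3.96% as lower). Ciart probes A and B fell by 0.70 and 0.69 (SE 0.103 and 0.0848, adjusted p = 1.1646e-05 and 5.0344e-07), Per1 probes A and B by 0.33 and 0.26 (adjusted p = 0.0057486 and 0.0064368), Per2 probe A by 0.26 (0.0042763), Per3 by 0.16 (0.020699) and Cry2 by 0.15 (0.012949). Per2 probe B had a change of -0.18 (adjusted p = 0.082741). The number called was 4 without the hearts carrying another tissue, 2 on cage means and 4 and 0 within batches 1 and 2. The averaged comparison shares its hearts with the comparisons above and repeats them in part.

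The tested probes of the repressors had a median change of -0.32 in offspring of HF-fed dams and -0.21 in those of LF-fed dams for the diet after weaning, where the medians over all tested probes were -0.00031 and -0.0020. For the diet of the dam the medians were 0.26 when the sons ate LF and 0.20 when they ate HF, against 0.00051 and -0.0013 over all probes. These contrasts are a description, as the members were chosen with earlier results of these data known. Whether the effect of 1 diet depended on the other was tested as an interaction, and limma called none of the 8 probes and none of the 12645, with 3.41% of all probes and 0 member probes under an unadjusted p of 0.05. For Ciart probes A and B the interaction was 0.13 and -0.024 (95% intervals -0.28 to 0.55 and -0.37 to 0.32), and for Per2 probe A it was -0.041 (-0.28 to 0.20). For Ciart the intervals thus include differences between the dams' diets of up to 0.55 on the log2 scale.

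Across hearts of the same group, the repressors tended to be high or low together. After removal of group means, all 10 pairs of the 5 tested genes had a positive Pearson r, with a median of 0.45, and 7 pairs passed a two-sided permutation test within groups (100000 resamples, Benjamini-Hochberg over the 10 pairs). The largest were Per2 with Ciart (r = 0.56, rho = 0.41), Per2 with Per3 (r = 0.55, rho = 0.50) and Per1 with Ciart (r = 0.51, rho = 0.54), each at adjusted p = 0.003133 for r. For rho their adjusted p-values were 0.04467, 0.0117 and 0.0044, and they were the 3 pairs that also passed by rank. Leaving out the 2 hearts farthest from the median of the first gene gave r = 0.40, 0.38 and 0.48 for these 3 pairs. The 3 pairs that did not pass were Cry2 with Ciart (r = 0.35), Per3 with Cry2 (0.29) and Per1 with Per3 (0.26). For this count and the counts of pairs below, the share of all gene pairs that would pass was not computed. Over 8748 genes, the rank of 1 member for another ran from 8 (Ciart for Per2) to 1392 (Per3 for Per1).

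The covariation was uneven between groups and cages. Per2 with Ciart gave r = 0.0089 in HF_HF, -0.33 in HF_LF, 0.89 in LF_HF and 0.71 in LF_LF, a difference between groups that was not tested. Without the 5 hearts of cage 11 the median r was 0.30 and none of the 10 pairs passed the permutation test, with 5 under an unadjusted p of 0.05. With the mean of each cage and group removed, the median r was 0.21 and again none passed (1 unadjusted). Under that removal Per2 with Ciart kept r = 0.57 and Per2 with Per3 0.56, while Per1 with Ciart gave 0.085. Within batches 1 and 2 the median r was 0.45 and 0.32, and 2 and 0 pairs passed (in batch 2 the permutation tests were on 15 hearts). Hearts of a cage come from the same breeding group and are not independent, which these p-values do not take into account.

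Several repressors ran against Arntl and Clock, the activators, across hearts. Of the 45 pairs of a member with a tested gene of 4 clock lists (activators, REV-ERB and ROR receptors, PAR bZIP factors with Nfil3, and the DEC repressors), 13 passed, 7 positive and 6 negative, and 8 of the 13 also passed by rank. The 6 negative pairs were 6 of the 10 pairs of a member with Arntl or Clock. The pairs of these that did not pass were Per1 and Cry2 with Arntl (r = -0.20 and -0.33) and Per2 and Ciart with Clock (-0.30 and -0.40). Arntl, which encodes BMAL1, was lower in hearts with more Per3 (r = -0.67, rho = -0.66, permutation adjusted p = 0.00045), Per2 (r = -0.62, rho = -0.56, adjusted p = 0.00198) and Ciart (r = -0.58, rho = -0.45, adjusted p = 0.00198). Ciart with Arntl gave r = -0.057 in HF_HF and -0.045 in HF_LF, against -0.83 in LF_HF and -0.82 in LF_LF. This pair had r = -0.37 without the 2 hearts farthest from the median of Ciart. Without cage 11 it had r = -0.45 (permutation adjusted p = 0.08254). Clock was lower in hearts with more Per3 (r = -0.55), Cry2 (-0.53) and Per1 (-0.41). Cry2 with Clock did not pass by rank (rho = -0.40, permutation adjusted p = 0.0726). Per1 with Clock had r = 0.24 in HF_HF, and -0.25 without the 2 hearts farthest from the median of Per1. Without cage 11 the 3 pairs had r = -0.46, -0.41 and -0.27 (permutation adjusted p = 0.054, 0.1333 and 0.2625). None of the 3 passed with cage and group means removed. Of 8748 genes measured beside each member, Arntl had the lowest r of all with Per2 and with Per3.

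Dbp, a PAR bZIP factor that itself is driven through E-boxes and drives D-box genes, ran with 4 of the 5 repressors. Its r was 0.73 with Ciart (rho = 0.63, permutation adjusted p = 0.00045), 0.58 with Per3, 0.54 with Per2 and 0.41 with Per1, and these 4 passed, while Cry2 did not (r = 0.42, adjusted p = 0.0801). By rank, Per2 and Per1 did not pass with Dbp (rho = 0.32 and 0.39, permutation adjusted p = 0.1704 and 0.06464). Per2 with Dbp gave r = 0.27 without the 2 hearts farthest from the median of Per2 and 0.23 without cage 11, and it was negative in HF_HF and HF_LF (-0.21 and -0.22). The raw p of Ciart with Dbp was 1e-05, the smallest that the resampling can give. Tef, a further PAR bZIP factor, passed with Ciart (r = 0.42), and Rora, a receptor that activates Arntl, with Per1 and Per2 (0.45 and 0.43). Tef with Ciart and Rora with Per2 did not pass by rank (rho = 0.29 for both), and Rora was negative with Per1 and Per2 in LF_LF (-0.46 and -0.32). Nr1d1 and Nr1d2, the REV-ERB receptors that repress Arntl, passed with none of the members by r (between -0.25 and 0.35). Cry2 with Nr1d2 passed by rank (rho = 0.42, permutation adjusted p = 0.03995) and with cage and group means removed (r = 0.42, adjusted p = 0.018). Ciart with Dbp and Per3 with Arntl were the 2 pairs that still passed without cage 11 (r = 0.56 and -0.57, adjusted p = 0.0272 for either). They also passed with cage and group means removed (r = 0.74 and -0.66, adjusted p = 0.0318 and 0.0399), as did Per2 with Arntl (-0.78) and with Dbp (0.79). Within batches 1 and 2, r was 0.66 and 0.81 for Ciart with Dbp, and -0.57 and -0.76 for Per3 with Arntl.

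**Figure D4:**
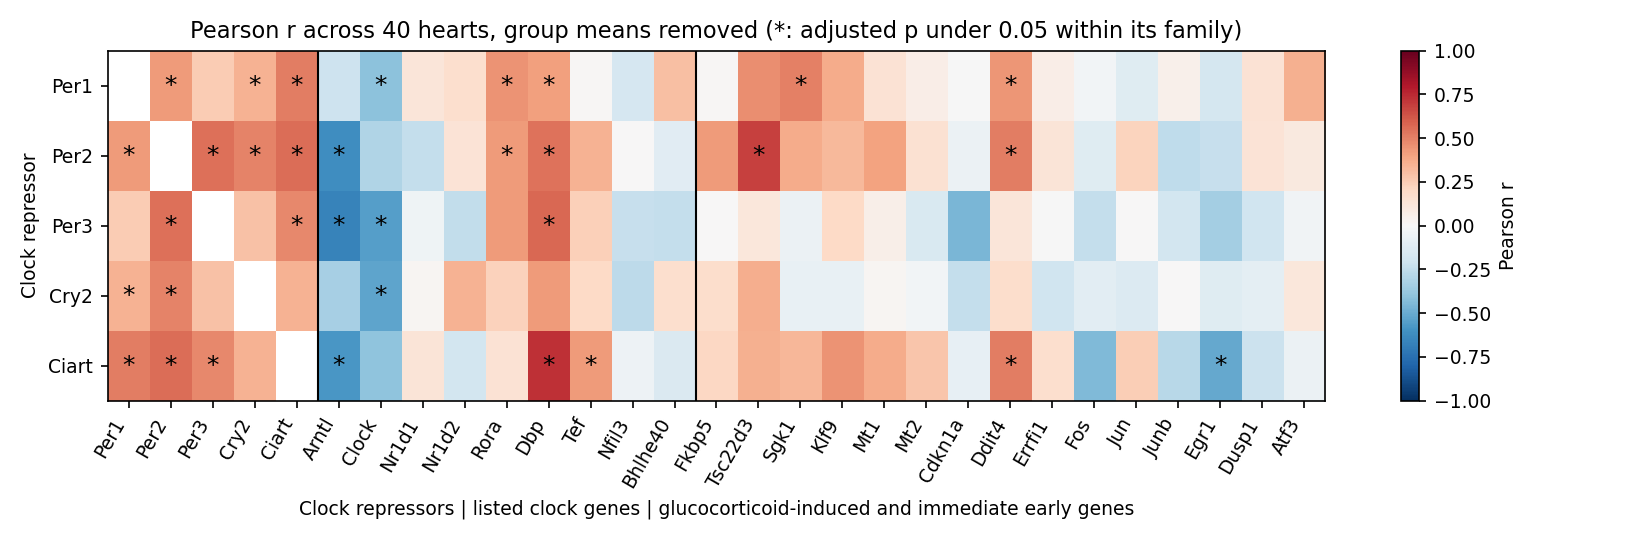
Pearson r between the 5 tested repressors (rows) and the repressors, listed clock genes and listed induced genes (columns) over 40 hearts with group means removed. Red is positive, blue is negative and stars mark an adjusted p under 0.05 within the family of pairs. Among these pairs, Ciart with Dbp (0.73) has the highest r and Per3 with Arntl (-0.67) the lowest.

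Per1 and Per2 are also known as targets of glucocorticoids and of other acute stimuli. Of 75 pairs of a member with 15 tested genes of these kinds, 6 passed. Per2 ran with Tsc22d3, the glucocorticoid-induced leucine zipper (r = 0.68, rho = 0.67, permutation adjusted p = 0.00075, the smallest the resampling can give), and Tsc22d3 was the gene most like Per2 of 8744 genes outside the members. The sign was shared by all groups, with r = 0.71 in HF_HF, 0.44 in HF_LF, 0.86 in LF_HF and 0.80 in LF_LF, and r was 0.67 and 0.82 within batches 1 and 2. With cage and group means removed r was 0.46 (adjusted p = 0.283). Ddit4, a stress- and hormone-induced inhibitor of mTORC1, ran with Per2, Ciart and Per1 (r = 0.51, 0.51 and 0.44), and Sgk1, a glucocorticoid-induced kinase, with Per1 (0.50). With cage and group means removed, Ddit4 had r = 0.046 with Per2 and 0.32 with Per1 (permutation adjusted p = 0.9075 and 0.387). Per1 with Sgk1 gave r = 0.62 in HF_HF, 0.32 in HF_LF, -0.18 in LF_HF and 0.89 in LF_LF. Ciart with Ddit4 did not pass by rank, gave r = 0.90 in LF_LF and 0.051, 0.19 and 0.10 in HF_HF, HF_LF and LF_HF, and had r = 0.26 without cage 8. Egr1, an immediate early transcription factor, ran against Ciart (r = -0.51, rho = -0.52, adjusted p = 0.04587). Without cage 8, Per2 with Tsc22d3 was the 1 pair of the 6 that remained called. Fkbp5, a co-chaperone induced by glucocorticoids, had r = 0.42 with Per2 (permutation adjusted p = 0.05448, and 0.03337 for its rho of 0.48). Markers of other cells moved with Per1 and Ciart to a like degree (r = 0.54 of Per1 with the endothelial markers and -0.44 of Ciart with the fibroblast markers), and their part was not tested.

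**Figure D5:**
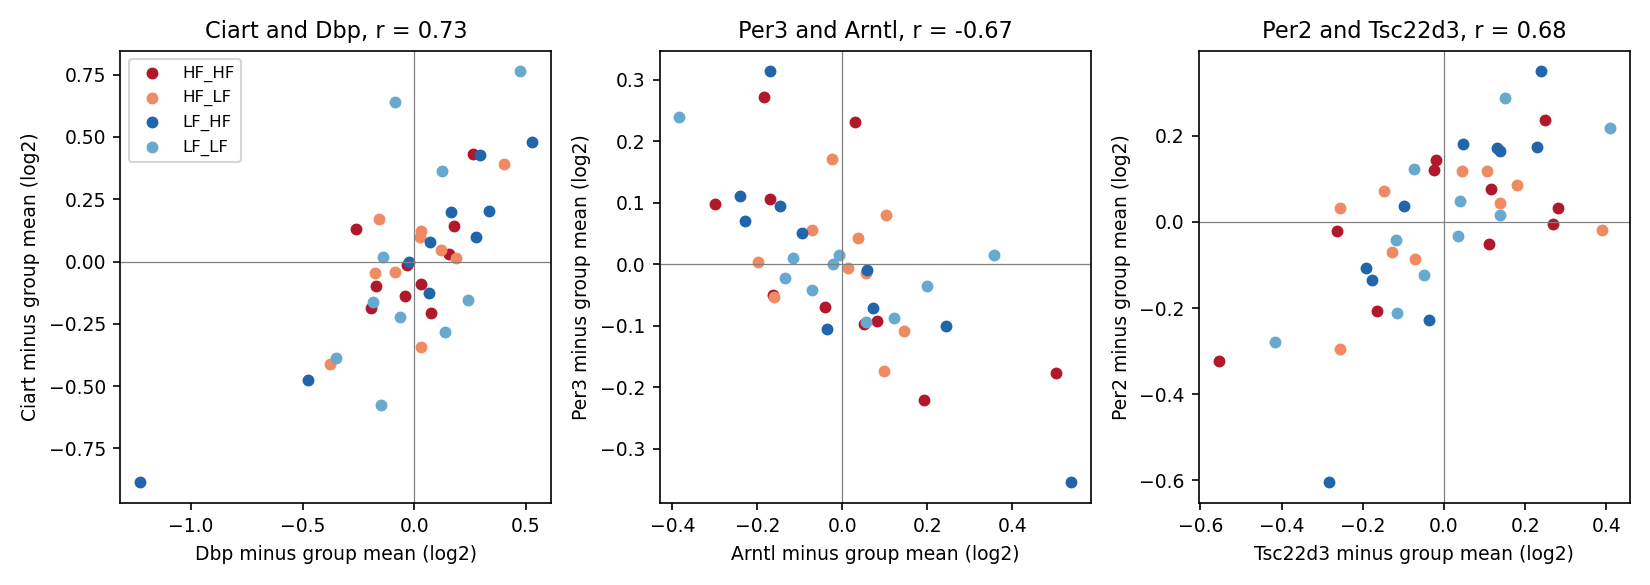
Log2 intensity minus the group mean in each of 40 hearts for Ciart against Dbp, Per3 against Arntl and Per2 against Tsc22d3, coloured by group. The clouds slope with r = 0.73, -0.67 and 0.68, and the LF_HF heart that is lowest for each repressor comes from cage 11, without which r was 0.56, -0.57 and 0.69.

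Of 15 pairs of a member with a body measure, 3 passed, all of them negative. Per1 was lower in animals that weighed more at 3 weeks (r = -0.54, rho = -0.52, permutation adjusted p = 0.0168) and at the later weighing (r = -0.46, rho = -0.46, adjusted p = 0.03135). Ciart was lower in animals that were heavier at 3 weeks (r = -0.42, rho = -0.48, adjusted p = 0.03335). Without the 2 hearts farthest from the median of the gene these 3 values were -0.51, -0.53 and -0.48. With cage and group means removed, r was 0.052, -0.27 and 0.20, and without cage 8 none of the 15 pairs passed the permutation test (4 unadjusted). Fasting glucose passed with no member with group means removed (r between -0.24 and 0.29), while with cage and group means removed Per3 with glucose passed (r = 0.54, permutation adjusted p = 0.0354).

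The genes whose pattern over the 40 hearts was most like each member, after removal of group means, are given as a description. For Ciart these were Tcap, a titin-binding protein of the sarcomere (r = 0.74), Dbp (0.73) and Usp2, a deubiquitinase with clock-dependent expression (0.72), and at the other end Lmo4 (-0.63) and Wsb1 (-0.61). Per2 was most like Tsc22d3 (0.68), Abhd10 (0.61) and Ctage5 (0.60), and least like Arntl (-0.62) and Rrad (-0.58). The genes nearest to Per3 were Mrpl9 (0.61), Ggnbp2 (0.60) and Dbp (0.58), and the farthest Arntl (-0.67) and Pde8a (-0.58). Per1 was most like Nes (0.66), Rasa2 (0.65) and Rnf138 (0.64), and least like Slc25a5 (-0.61) and Fam25c (-0.59). For Cry2 the order was Dhrs11 (0.55), Art5 (0.54) and Ltbp1 (0.54), with Mmp14 (-0.57) and Clock (-0.53) at the other end. Ciart ranked 8 and Per3 ranked 11 of 8748 genes for Per2, and Per2 ranked 10 for Per3 and 11 for Cry2. Other members ranked farther down. For Ciart, Per2 ranked 102, Per1 239, Per3 358 and Cry2 1321. For Per1, Ciart ranked 88, Per2 328, Cry2 707 and Per3 1392.

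Among the partners of the repressors, few genes passed for diet. Of the 9 tested genes of the 4 clock lists, 1 fell with the HF diet in offspring of HF-fed dams: Dbp, by 0.40 (SE 0.0827, adjusted p = 0.017561). In offspring of LF-fed dams none of them was called, and Dbp had a change of -0.57 (SE 0.163, adjusted p = 0.057522). Tef changed by -0.32 and -0.053 with these dams (adjusted p = 0.065341 and 0.74896). Arntl had changes of 0.16 and 0.19 (adjusted p = 0.61436 and 0.2281), opposite in sign to those of the repressors, and Nr1d1 of 0.064 and -0.093, and Nr1d2 of -0.062 and 0.15, none of which passed. For the diet of the dam, no gene of these lists passed in either comparison of 2 groups. Arntl changed by -0.20 between HF_LF and LF_LF and by -0.24 between HF_HF and LF_HF (adjusted p = 0.99291 and 0.36971). The probe of Npas2, the third activator, was below the filter. Of 9 tested genes of the glucocorticoid list, Fkbp5 rose by 0.80 in HF_LF relative to LF_LF (SE 0.122, adjusted p = 0.016507) and fell by 0.64 in HF_HF relative to HF_LF (SE 0.122, adjusted p = 0.008887). These comparisons share the HF_LF hearts. In the averaged comparisons, Fkbp5, Mt1, Mt2 and Klf9 of this list rose with the HF diet of the dam (by 0.56, 0.32, 0.24 and 0.20) and fell with the HF diet after weaning (by 0.41, 0.22, 0.18 and 0.20). Over all tested probes, 0.277% were called as higher with the dam's diet and 3.96% as lower after weaning. The changes of the 9 genes ran from -0.20 to 0.56 with the dam's diet and from -0.41 to 0.066 after weaning. These calls were not repeated on cage means or within batches. With the averaged HF diet of the dam, Rora rose by 0.17 (adjusted p = 0.0054584) and Usp2, a member of the list of 5 tested clock kinases and ubiquitin enzymes, by 0.27 (adjusted p = 0.028204), and with the averaged diet after weaning Dbp fell by 0.48 (adjusted p = 0.00081834). The 6 tested immediate early genes gave no call in any comparison.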

How the data were processed

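Total RNA of 40 hearts had been labelled and hybridised to MouseRef-8 v2.0 beadchips and read out in BeadStudio, whose version the sources used here do not give. The deposited values are linear probe intensities that the authors had quantile-normalised over the 40 arrays, from 47.5 to 31454.1, and no background subtraction was stated. The number of arrays limits the precision, and detection p-values were not used. Values were taken to the log2 scale. Tests were run on probes whose intensity passed the median of their array in 20 or more of the 40 hearts, that is on 12645 of 25697 probes. Symbols were RefSeq's where the Entrez gene number of the platform annotation matched, and otherwise the platform's. In all, 23978 probes had 1 symbol, 0 several and 1719 none. Groups were compared with limma 3.58.1 (R 4.3.3, variance trend), each comparison of 2 groups on its own 20 arrays and the interaction and averaged effects on all 40, with Benjamini-Hochberg adjustment over all tested probes and a false discovery rate of 5%. Fold changes are HF over LF. "All 10 hearts" compares the hearts of the first group with the median of the other. Correlations used the brightest tested probe of a gene, group means removed, and permutation within groups in NumPy 2.4.6 under Python 3.11.15, with adjustment in SciPy 1.17.1. Hearts are separate mice, but hearts of a cage are related, and p-values do not account for that. Batches were inferred from the values, as no label names them. All member probes were named, the listed genes by count with values for those called and for Arntl, Nr1d1, Nr1d2, Dbp, Tef and Fkbp5, and for each member the 3 genes most like it and the 2 least like it. The members and gene lists were chosen with earlier results of these data known. The limma comparisons of 2 groups were checked on simulated data with independent errors, without cages, and the computation of r on built values. The permutation test, the cage test, the interaction and the averaged comparisons were not checked in this way. Promoter windows are RefSeq's (GRCm38.p6), cut to 250 bases before each start, in the direction of the gene. Alternatives covered the filter, variance trend, background, batch, cage, array weights, left-out hearts, probe choice and an atrial covariate. Cage means were taken per cage and group. Leaving out cage 8 or cage 11 was added after the data had been seen.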

Additional observations from a re-analysis of the deposited data

Results flagged for a closer look

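In 4 of 40 sets of 10 values (1 probe in 1 group), the extreme heart was separated from its neighbour by more than the 95% limit of Dixon's test allows, which chance passes in about 1 set in 20. Per2 probe A read 581.6 in HF_LF replicate 7, the lowest heart, against 672.7 in the next (gap of 0.508 of the range), and that heart also carried signal of another tissue. LF_LF replicate 2, from cage 8, was the highest for Per3, at 151.3 against 129.6 (0.673), and for the dim Per2 probe C, at 90.2 against 71.3 (0.604). Cry2 read 203.0 in HF_HF replicate 6, against 181.3 in the next heart (0.538). No interaction of the diets passed for a member.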

How the results depend on the processing

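No paired analysis was possible because the replicate numbers tie no animal of one group to an animal of another. Breeding cages do tie sons across the diets after weaning, and the 5 divided cages were compared within cages in the text. In the next sentences the counts are of the 8 member probes, or of pairs. For the diet of the dam in LF-fed sons, the 1 call became 0 with no filter on dim probes, with all 40 arrays in 1 fit, within batch 2, on cage means, without hearts with signal of another tissue and without cage 11, and 2 within batch 1, with array weights and with the atrial covariate. For the diet after weaning with LF-fed dams, the 2 calls became 0 within batches 1 and 2, on cage means, without the other-tissue hearts, without cage 8 and without cage 11, and 1 with 1 probe per gene. With HF-fed dams the 3 calls became 0 within batch 2, 1 on cage means and 5 with array weights. Leaving out 1 heart at a time gave 0 to 2, 2 to 2 and 2 to 5 calls in these 3 comparisons and 0 to 0 for the diet of the dam in HF-fed sons. For the averaged diet of the dam, 2 calls became 0 within batch 2, on cage means and without the other-tissue hearts, 1 with 1 probe per gene and 4 without cage 8. For the averaged diet after weaning, 7 became 4, 0, 2 and 4 within batch 1, within batch 2, on cage means and without the other-tissue hearts. The 2 calls of cage within group became 0 with no filter, without the other-tissue hearts and without cage 8, and 1 with the normexp background and without cage 11. Among members, 7 pairs became 0, 2, 0 and 0 with cage means removed, within batch 1, within batch 2 and without cage 11. With clock genes, 13 calls were made, against 6 with cage means removed (4 of them among the 13), 7 with batch means removed, 1 and 2 within batches 1 and 2 (0 and 1 of them among the 13), 7 without the other-tissue hearts and 2 without cage 11. With induced genes, 6 calls were made, against 4 with cage means removed (1 of them among the 6), 1 within batch 1, 0 within batch 2, 1 without the other-tissue hearts and 1 without cage 8. With body measures, 3 calls were made, against 1 with the mean of probes, 1 with cage means removed (0 among the 3, as it was Per3 with glucose), 0 with batch means removed, 0 within either batch, 1 without the other-tissue hearts and 0 without cage 8. The cause was not tested; fewer hearts entered the fits within a batch, without a cage, on cage means and without the other-tissue hearts. Leaving out cages 8 and 11 was chosen after seeing the data.

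Single changes that turned sign were all small and uncalled. Between HF_HF and LF_HF within batch 2, Per3 gave -0.033 and Cry2 -0.038. The interaction turned to 0.0029 for Ciart probe B with the normexp background, to -0.0032 for Cry2 with batch as a term, to 0.0070, -0.15 and -0.083 for Per2 probe B, Per3 and Cry2 within batch 2, to -0.023 and -0.036 for Per3 and Cry2 on cage means, and to -0.0099 for Per3 with array weights. Without the other-tissue hearts it was -0.044 for Cry2 and -0.075 for Ciart probe A, without cage 8 it was -0.12 for Ciart probe A, and without cage 11 it was -0.0077, -0.088 and -0.0039 for Per3, Cry2 and Ciart probe A. Signal close to background limits Cry1 and Per2 probe C.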
